A study of Rattus norvegicus with 63 samples.

Results

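The organic ion and peptide transporters described here are 6 genes whose products carry drugs, metabolites, carnitine, small peptides and prostaglandins across kidney cell membranes: Slc22a6, Slc22a8, Slc22a2, Slc22a5, Slc15a2 and Slco2a1. They were chosen by symbol, with earlier results of these data known. All probe sets that carry 1 of these names on the 2 expression arrays of a rat kidney time course were taken. That gave 13 probe sets of 24606, which stand for 6 of 10621 named genes. The main array type holds 7 of them, 2 for Slco2a1 and 1 for each other gene, and the second array type holds 6, with 2 for Slco2a1 and none used here for Slc22a8. A probe set is a group of short probes for 1 transcript, and all 13 were bright enough to be tested.

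Rats were injected with methylprednisolone, a corticosteroid drug that acts through the glucocorticoid receptor, and total RNA of the kidney was taken at 16 later times: 0.25, 0.5, 0.75, 1, 2, 4, 5, 5.5, 6, 7, 8, 12, 18, 30, 48 and 72 h. Rats killed at 0 h had received no treatment. On the main type there were 3 libraries at each time after the injection and 4 at 0 h. On the second type there were 3 at 2 h, 3 at 6 h and 4 at 0 h. Their titles carry the same times and sample numbers as arrays of the main type. Both types may therefore hold RNA of the same samples, which the labels do not say, and the second type is not counted as an independent repeat. Dose, strain, sex, age, hour of day and adrenal status are not given in the sources used here, and no vehicle-injected rats were labelled, so the drug, the injection itself and the hour of killing cannot be told apart. The labels do not say whether the numbered samples come from separate animals, so each p-value reflects the scatter among these libraries alone, and that scatter could be technical in part.

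In the kidney these proteins sit mostly in the proximal tubule, where a cell takes up organic anions and cations from the blood side and hands them to the urine. Slc22a6 (OAT1) and Slc22a8 (OAT3) are the basolateral uptake carriers for organic anions such as para-aminohippurate, many antibiotics, diuretics and uremic solutes, and they work by exchange against dicarboxylates. Slc22a2 (OCT2) takes up organic cations such as creatinine and metformin. Slc22a5 (OCTN2) and Slc15a2 (PEPT2) face the urine and recover filtered carnitine with sodium, and filtered di- and tripeptides with protons. Slco2a1 (PGT) carries prostaglandins into cells, where they are broken down, and is known from endothelium and collecting duct as well.

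The starts of these genes differ in base composition and in the short motifs searched for. Of the 6 genes, 5 have a promoter window in the RefSeq table used here (assembly GRCr8, 250 bases before to 50 after the start), and 3 are shown: both windows that held a match, and that of Slc22a5, whose transcript was lower at more single times than those of the other SLC22 members. Capitals mark the matches.
Slc22a8, chr1:214927034-214927333, plus strand: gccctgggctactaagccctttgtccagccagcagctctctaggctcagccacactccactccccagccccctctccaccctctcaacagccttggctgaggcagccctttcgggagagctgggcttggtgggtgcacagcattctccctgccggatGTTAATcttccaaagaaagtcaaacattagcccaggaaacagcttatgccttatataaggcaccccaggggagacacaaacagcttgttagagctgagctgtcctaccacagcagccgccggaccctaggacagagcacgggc
Slc15a2, chr11:77519315-77519614, plus strand: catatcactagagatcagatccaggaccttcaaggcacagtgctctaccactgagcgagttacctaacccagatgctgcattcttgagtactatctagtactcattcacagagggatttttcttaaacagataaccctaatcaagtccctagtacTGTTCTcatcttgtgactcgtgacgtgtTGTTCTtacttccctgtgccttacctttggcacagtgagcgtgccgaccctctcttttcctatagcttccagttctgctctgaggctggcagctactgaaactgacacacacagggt
Slc22a5, chr10:38536023-38536322, minus strand: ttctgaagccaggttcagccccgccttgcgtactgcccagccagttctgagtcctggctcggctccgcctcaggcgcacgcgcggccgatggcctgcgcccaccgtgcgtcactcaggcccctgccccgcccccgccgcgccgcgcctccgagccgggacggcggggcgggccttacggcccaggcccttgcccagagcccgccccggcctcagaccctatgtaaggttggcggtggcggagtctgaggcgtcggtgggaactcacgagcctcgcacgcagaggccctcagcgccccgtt

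The searched motifs, on both strands, were AGAACA (the half-site of the glucocorticoid response element), the full element (the half-site and its inverted copy with 3 bases between them), GTTAAT (a half-site of the kidney factor HNF1) and CAAAGTCCA (HNF4). The half-site GTTAAT stood 93 bases before the start of Slc22a8, and 7.45% of all 33469 promoter windows held it. In Slc15a2 the glucocorticoid half-site stood 95 and 67 bases before the start, both times on the other strand (capitals), and 20.68% of all windows held such a half-site. The full element, which 5 windows of all genes held, and the HNF4 motif, in 0.39% of windows, were in none of the 5. None of the 4 motifs was in the windows of Slc22a5, Slc22a2 and Slco2a1. Guanine and cytosine made up 73.7% of the Slc22a5 window and 47% of that of Slc15a2, with a median of 51.7% over all windows. A match is a string of letters and says nothing of binding. Slc22a6 and Slc22a8 are neighbours on chromosome 1, with 0 protein-coding genes between them.

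All signals below are intensities on the authors' scale, on which the trimmed mean of each array was about 150, and a difference is on the scale of log2(signal + 7.63) on the main type and log2(signal + 3.56) on the second. Signals of different probe sets share no common scale, so none is set against another. A call means an adjusted p under 0.05 from limma, adjusted over all 9520 probe sets tested on the main type or 5244 on the second. Of known glucocorticoid targets, Fkbp5, a cochaperone of the glucocorticoid receptor, was higher by 3.13 ± 0.17 (SE) at 5 to 8 h, and all 10 listed glucocorticoid-induced genes were higher then. On the main type 3 libraries stood apart by their lower correlation with the others (4 h replicate 2, 5 h replicate 2 and 7 h replicate 3), and on the second 2 (2 h replicates 2 and 3). Results were computed with and without them. The summed signal of 14 proximal tubule markers lay between 25783 and 43884 in all libraries of the main type.

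Every one of the 7 main-type probe sets varied over the 17 times in the moderated F test of limma, in which 16.1% of all tested probe sets were called. The adjusted p was 0.0005049 for Slc22a6, 0.0062 for Slc22a8, 0.007 for Slc22a2, 0.0072 for Slc22a5, 0.0133 for Slc15a2, and 0.0003611 and 0.0005639 for the probe sets of Slco2a1, 1372889_at and 1387492_at. No omission of a single library ended any of these calls. Without the arrays whose titles carry the letter b or c, the meaning of which the labels do not state, 4 stayed called, and Slc22a8, Slc22a2 and Slc15a2 had adjusted p = 0.0662, 0.2975 and 0.0969. The plot of signals by time shows that each probe set had its lowest time mean at 4, 5, 5.5 or 7 h. Slc22a2 differed at 4 h, where its mean was the highest after that at 72 h.

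**Figure D1:**
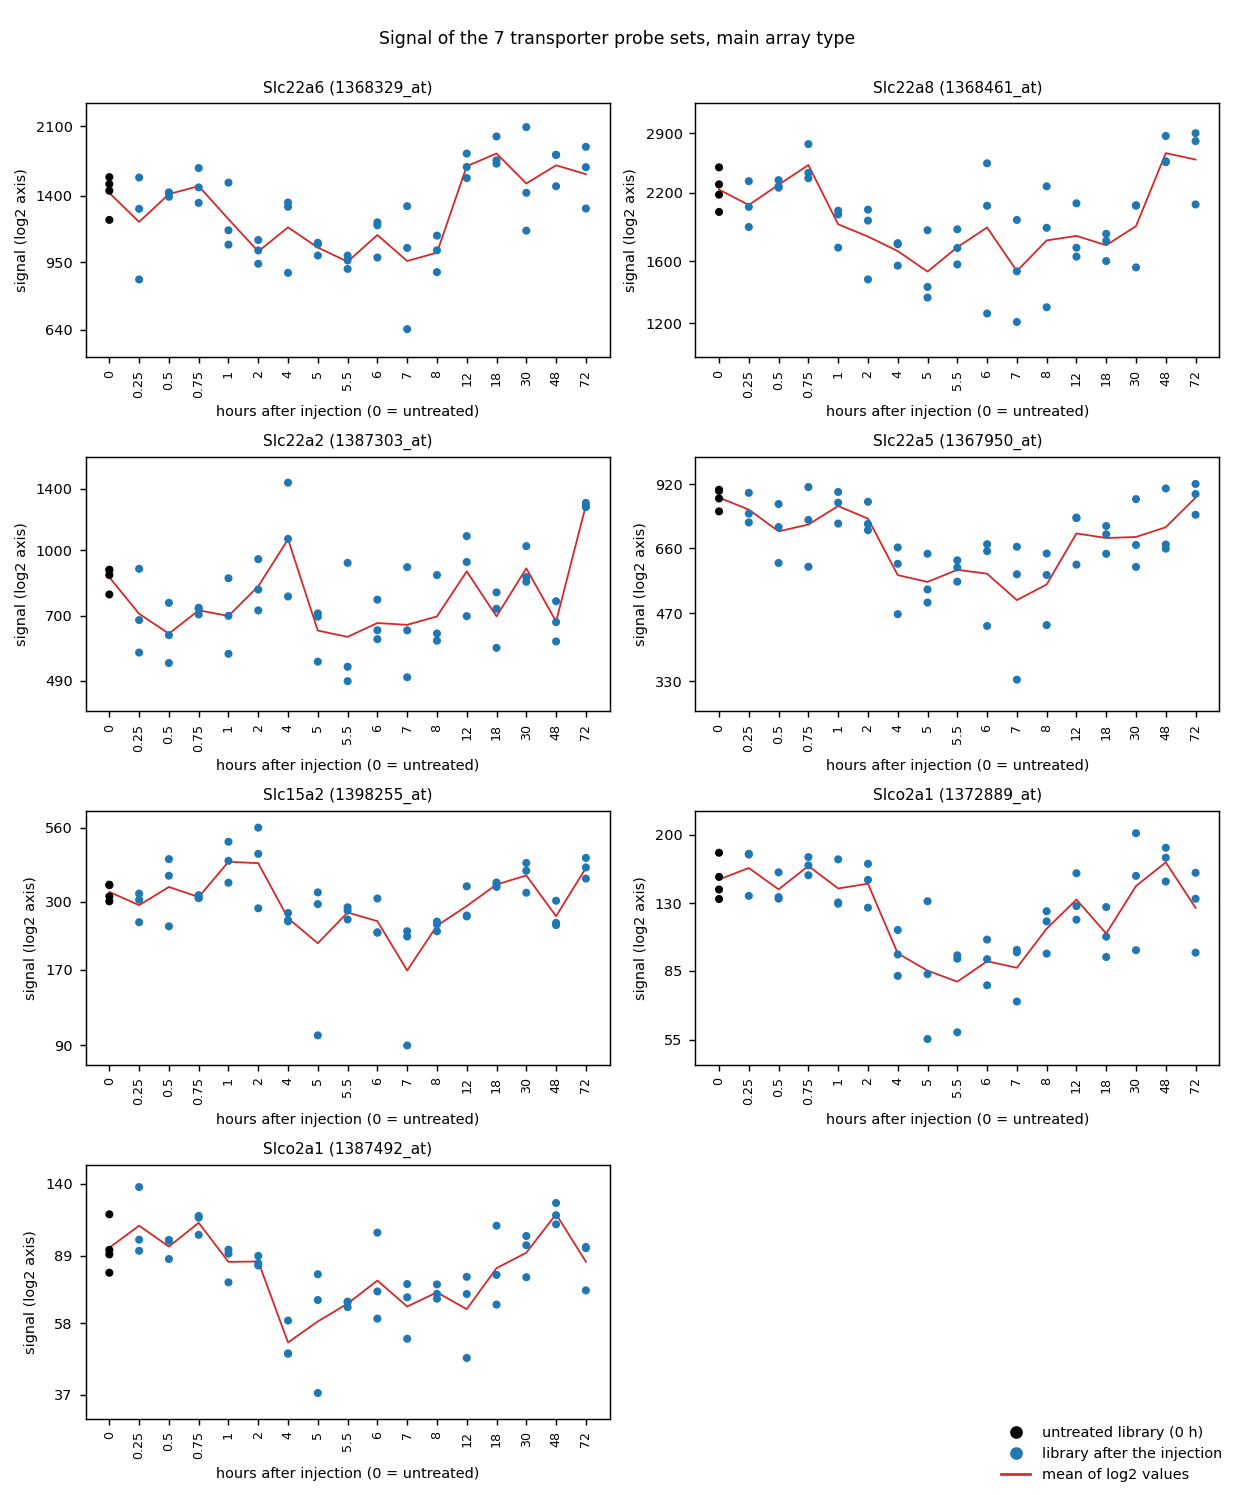
Signal of each transporter probe set on the main array type (log2 axis) at 0 h and at 16 times after the injection, 1 point per library, with the line joining the means of the log2 values. Slc22a5 and the probe set 1372889_at of Slco2a1 had all 15 libraries of 5 to 8 h under the lowest of the 4 untreated libraries, Slc22a6 lay at 1552 to 1978 in the 6 libraries of 12 and 18 h, and Slc22a2 showed its highest mean at 72 h.

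At 5 to 8 h 5 of the 7 probe sets were called lower than at 0 h, where 4.73% of all tested probe sets were called lower, and 0 were called higher, where 4.98% were. The 5 lower ones stand for 4 genes: Slc22a5, Slco2a1 (both probe sets), Slc22a6 and Slc22a8. The members were chosen with earlier results of these data known. Their calls beside the shares over all probe sets, here and in the F test, are therefore a description only. All 7 differences were negative, with a median of -0.49 beside -0.03 over all tested probe sets, and the levels were 23% to 39% lower. Of the 0.25 to 1 h, 2 to 4 h, 12 to 18 h and 30 to 72 h windows, none had a member called (backgrounds 0.662%, 9.97%, 0.389% and 0% of probe sets in either direction). The numbers of probe sets at an unadjusted p under 0.05 there were 634, 2341, 544 and 517 of 9520. All of these windows share the 4 libraries at 0 h. In RNA of the bulk kidney, fewer cells of a type and less RNA per cell cannot be told apart.

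The organic anion carriers Slc22a6 and Slc22a8 were both lower. Slc22a6 had a lowest, median and highest signal of 643, 1018 and 1317 in the 15 libraries of 5 to 8 h, against 1216, 1442, 1499 and 1560 in the 4 untreated ones. All but 1 of the treated libraries lay under the lowest untreated one, and the exception was 7 h replicate 1. The difference was -0.49 ± 0.14 (limma, adjusted p = 0.0149), a level 28.8% lower. Slc22a8 had 1206, 1700 and 2521 in the same libraries, against 2011, 2179, 2286 and 2474 untreated. Of those 15 libraries 12 lay under every untreated one, while 6 h replicate 3 lay above all 4. Its difference was -0.41 ± 0.13 (limma, adjusted p = 0.032). The lowest values of both genes, 643 and 1206, came from 7 h replicate 3, 1 of the libraries that stand apart. Without those libraries the difference of Slc22a6 was -0.43 ± 0.13 (adjusted p = 0.0232). Leaving out 0 h replicate 3 or 4 ended the call of Slc22a6 (adjusted p of at most 0.0775). For Slc22a8 it was lost when any of 0 h replicates 1, 2 and 3 was left out (up to 0.142), and also without the libraries that stand apart (0.0704), without the filter on dim probe sets (0.0533) and with only the compared times in the fit (0.1553).

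Slc22a5, the carnitine carrier, had a lowest, median and highest signal of 333, 576 and 674 at 5 to 8 h, against 799, 855, 889 and 894 in untreated kidneys. The groups did not overlap, which was so for 1.59% of tested probe sets in this direction. It was lower by 35.2%, a difference of -0.63 ± 0.13 (limma, adjusted p = 0.0006955), and no single library ended this call. Taken time by time, Slc22a5 was called lower at 4, 5, 6, 7 and 8 h, where 7.73%, 3.07%, 2.28%, 1.80% and 0.861% of probe sets were lower. Without the libraries that stand apart the calls at 4 h (adjusted p = 0.1247) and 7 h (difference -0.47, adjusted p = 0.2115) were lost. At 5.5 h its 3 libraries lay between 554 and 619 and the call was missed. The lowest of its 52 values was 333, in 7 h replicate 3, 1 of the libraries that stand apart. Without those libraries the window difference was -0.56 ± 0.11 (adjusted p = 0.0004815).

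Slco2a1, the prostaglandin carrier, was lower on both of its probe sets. On 1372889_at the lowest, median and highest signals were 55.3, 93.7 and 131.7 at 5 to 8 h, against 133.5, 141.7, 153.4 and 178.6 untreated, again without overlap. The difference was -0.70 ± 0.15 (limma, adjusted p = 0.0013), 38.5% lower, and no single library ended the call. On 1387492_at they were 37.4, 67.8 and 102.8, against 79.9, 89.7, 92.2 and 115.4, with 14 of 15 libraries under the lowest untreated one. This difference was -0.44 ± 0.14 (adjusted p = 0.0298), and the call was lost without 0 h replicate 1, 3 or 4 (up to 0.1928), without the filter on dim probe sets (0.0511) and with only the compared times in the fit (0.1091). By single times 1372889_at was lower at 4, 5, 5.5, 6 and 7 h (at 5.5 h 2.22% of probe sets were) and 1387492_at at 4 and 5 h. Without the libraries that stand apart 1372889_at lost its calls at 4, 5 and 7 h (adjusted p = 0.1305, 0.2611 and 0.1816). At 4 h 1387492_at had 59.1, 47.9 and 48.0, a difference of -0.78 ± 0.18 (adjusted p = 0.0036), which held without any 1 library. Its dimmest values lay near the filter level, a signal of 52.3, where the log2 scale understates change.

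Slc22a2 and Slc15a2 were not called at 5 to 8 h, although array weights called both (adjusted p = 0.012 and 0.0272). Slc22a2, the cation carrier, had 489, 646 and 934 as lowest, median and highest signal, against 786, 874, 899 and 899 untreated, and 12 of the 15 libraries lay under all untreated ones. The difference was -0.38 ± 0.15 (adjusted p = 0.1026, 95% interval -0.68 to -0.08). Slc15a2, the peptide carrier, had 89.9, 249 and 325, against 301, 314, 345 and 347, with 13 of 15 below. Its difference was -0.50 ± 0.19 (adjusted p = 0.0867). The 2 lowest values, 97.9 and 89.9, came from 5 h replicate 2 and 7 h replicate 3, both libraries that stand apart, and without these the difference was -0.31 ± 0.12 (adjusted p = 0.1064). The single call of Slc15a2, at 7 h (-0.92, adjusted p = 0.0277), was lost when any of 0 h replicates 2, 3 and 4 was left out, and without 7 h replicate 3 (difference -0.49, adjusted p = 0.5615). Both genes were called under some omissions. For Slc22a2 these were 5.5 h replicate 3 and 7 h replicate 1, left out one at a time, and for Slc15a2 they were 5 h replicate 1, 5 h replicate 3 and 7 h replicate 1.

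In all, the count of 5 calls at 5 to 8 h was 2 without 0 h replicate 3, 3 without 0 h replicate 1 or 4, and 4 without 0 h replicate 2. It was 6 when 5 h replicate 1, 5 h replicate 3 or 5.5 h replicate 3 was left out, and 7 without 7 h replicate 1. Among the 13 calls at single times the one of Slco2a1 1387492_at at 4 h held under every omission, and the others were lost under 1 to 23 of 52 omissions.

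No member was called in the windows before and after. At 0.25 to 1 h they ran from -0.32 (Slc22a2, limma adjusted p = 0.7067) to 0.07. At 2 to 4 h Slc22a6, Slc22a5 and Slc22a8 stood at -0.39, -0.37 and -0.36, with adjusted p between 0.1113 and 0.1158. Slco2a1 1387492_at stood at -0.45 ± 0.16 then (adjusted p = 0.0587) and was called when any of 4 h replicate 1, 5 h replicate 2, 5 h replicate 3 and 12 h replicate 3 was left out. Slc15a2, by contrast, had its highest time mean at 1 h, with 497, 352 and 424. At 2 h it had 449, 560 and 284, against 301 to 347 at 0 h, so that the groups overlapped. At 30 to 72 h the 7 differences from 0 h lay between -0.17 and 0.16.

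**Figure D2:**
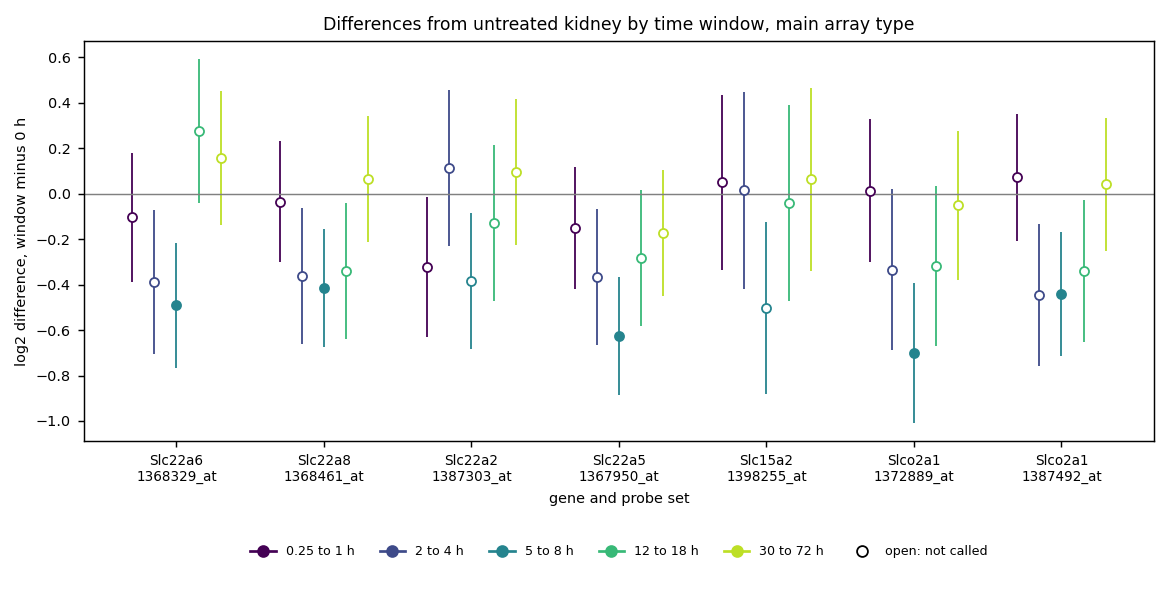
Log2 difference of each time window from 0 h for the 7 probe sets of the main array type, with 95% intervals from the limma fit. Filled points passed an adjusted p of 0.05 and open points did not. The filled points all belong to 5 to 8 h and lie between -0.70 and -0.41.

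The 30 h libraries offer another set to compare with, at a like hour of the day if all rats were injected at the same hour, which the labels do not say. At 5 to 8 h 3 of the 7 probe sets were lower than at 30 h, where 4.23% of all tested were. Slc15a2 had 89.9, 249 and 325 at 5 to 8 h, against 324, 390 and 416 at 30 h, a difference of -0.70 ± 0.21 (limma, adjusted p = 0.028). All but 1 of the 15 libraries lay under the lowest at 30 h. For Slco2a1 1372889_at the 30 h signals were 96.7, 154.4 and 202.0, and the difference was -0.65 ± 0.17 (adjusted p = 0.0116). For Slc22a6 they were 1142, 1424 and 2090, with a difference of -0.57 ± 0.15 (adjusted p = 0.0131). These 3 libraries scatter widely, and 1 of them can decide a call. Without 30 h replicate 2 the Slc22a6 difference was -0.33 (adjusted p = 0.3465), without 30 h replicate 1 that of Slco2a1 was -0.42 (adjusted p = 0.2206), and Slc15a2 was lost without 30 h replicate 2 or 3 (up to 0.1543). The count was 1 when 30 h replicate 2 or 3 was left out, 2 without 30 h replicate 1, and 4 when 5.5 h replicate 3 or 7 h replicate 1 was left out. Slc22a5 stood at -0.33 (adjusted p = 0.1479) and Slc22a8 at -0.17 (adjusted p = 0.5232).

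Levels at 12 to 18 h parted by gene. This comparison with 5 to 8 h was added after the data were seen. Slc22a6 had 1552, 1656 and 1790 at 12 h and 1688, 1978 and 1721 at 18 h, against at most 1317 at 5 to 8 h. All 6 libraries lay above all 15, as for 0.714% of tested probe sets. It was 1.70-fold higher (difference 0.77 ± 0.12, adjusted p = 6.365e-06, called without any 1 library and without those that stand apart), and 5.86% of probe sets were called higher. Slc22a5 was higher by 0.34 ± 0.11 (adjusted p = 0.034) and Slco2a1 1372889_at by 0.38 ± 0.13 (adjusted p = 0.0466). These calls were lost without the libraries that stand apart (0.0551 and 0.1156) and under 7 and 22 of 52 single omissions. Slc15a2 stood at 0.46 ± 0.16 (adjusted p = 0.0514) and Slc22a2 at 0.25 ± 0.13 (adjusted p = 0.2096). Slc22a8 differed by 0.07 ± 0.11 (adjusted p = 0.7524, 95% interval -0.15 to 0.30).

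In this window the adjacent anion carriers lay on opposite sides of the untreated level. Against 0 h Slc22a6 stood at 0.28 ± 0.16 and Slc22a8 at -0.34 ± 0.15, neither of them called (adjusted p = 0.915 and 0.7804), and the difference between these 2 genes was not tested. Slc22a8 had 1634, 1703 and 2093 at 12 h and 1758, 1817 and 1600 at 18 h. At 48 h it had 2863, 2546 and 2534, against 2011 to 2474 at 0 h, and at 72 h 2082, 2899 and 2795. Its 12 to 18 h window was lower than 30 to 72 h by 0.41 ± 0.12 on the log2 scale without a call (adjusted p = 0.1209). In that comparison 0 of 7 members were called, as were 0.914% of all probe sets, with 849 of 9520 at an unadjusted p under 0.05. Over the 17 time means Slc22a6 was highest at 18 h and lowest at 5.5 h, and Slc22a8 was highest at 48 h and lowest at 5 h.

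Slc22a2 was high at 72 h, the last time, but not at 48 h. Its signals at 48 h were 608 to 757, a difference of -0.35 from 0 h (limma, adjusted p = 0.7403). Its highest time mean was at 72 h, with 1266, 1273 and 1295, against 786 to 899 at 0 h. That difference of 0.56 ± 0.20 was not called (adjusted p = 0.5928, unadjusted p = 0.0079), and 2 of the 3 arrays at 72 h carry the letter c. At 4 h it had 777, 1447 and 1064, with the highest value of all its 52 in a library that stands apart. Correlations of its 17 time means with those of the other probe sets ran from -0.12 to 0.40, while the other pairs ran from 0.45 to 0.83. The 2 probe sets of Slco2a1 had r = 0.83, and Slc22a5 had r = 0.83 with Slco2a1 1372889_at and 0.82 with Slc15a2. These r describe 17 time means of shared libraries.

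The transcripts with the highest correlation to each member were picked from all tested probe sets, so high values follow from the choice. Nearest to Slc22a6 over the 17 time means were Clcn6 (r = 0.94), Scly and Dtnbp1, and to Slc22a5 the potassium channel gene Kcnj16 (r = 0.91), Masp1 and the prolactin receptor gene Prlr. Kcnj16 was also among the 3 nearest to Slco2a1 1372889_at, after Fstl1 (r = 0.95) and Nrp1. For Slc22a8 they were Glmp (r = 0.88), Smagp and Fundc2, for Slc15a2 Pappa2 (r = 0.90), Spats2l and Msrb2, and for Slc22a2 Dut (r = 0.86), Tmbim6 and Tff3. For Slco2a1 1387492_at they were Usp11 (r = 0.89), Naglt1 and Ankrd46.

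Some of the other organic ion and peptide transporters were called as well. Of 41 listed genes 21 were tested on the main type, and at 5 to 8 h 2 were lower and 0 higher than at 0 h (of all probe sets 4.73% were lower and 4.98% higher), with a median difference of -0.23 beside -0.03 over all probe sets. These were Slc22a23, an orphan carrier of the family (-0.71, adjusted p = 0.0015), and Slc22a18 (-0.35, adjusted p = 0.0151). At 2 to 4 h Slc22a23 (-0.58) and Slc15a1, the low-affinity relative PEPT1 of Slc15a2 (-0.82, adjusted p = 0.0247), were lower. Of all 9520 tested probe sets 457 were lower and 492 higher in that window. At 12 to 18 h 3 of the 21 were higher than at 5 to 8 h (of all probe sets 5.86% were), the urate and phosphate carriers Slc17a1 (0.45) and Slc17a3 (0.57) and the ABC transporter Abcc6 (0.50). Whether members and other transporters differ as groups was not tested.

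Other genes of proximal tubule transport and of the brush border gave mixed results. Pdzk1, the gene of a brush border scaffold, was lower at 5 to 8 h (-0.48 ± 0.13, limma adjusted p = 0.0114), as were 4.73% of all probe sets. It was the only one called of 9 tested genes for ion gradients, scaffolds and factors, whose median was -0.03. At 12 to 18 h Pdzk1 was higher than at 5 to 8 h (0.35), while the sodium-proton exchanger gene Slc9a3 (-0.82) and the carbonic anhydrase gene Car4 (-0.80) were lower. Of all 9520 tested probe sets 558 were higher and 573 lower in that comparison. Hnf4a, the gene of a transcription factor of the proximal tubule, stood at -0.11 ± 0.35 at 5 to 8 h against 0 h (adjusted p = 0.8993). Of 9 tested brush border peptidases, which make the small peptides that Slc15a2 takes up, Mme (-0.76), Xpnpep2 (-0.47) and Anpep (-0.43) were lower and Dpp4 was higher (0.36). In that comparison, 5 to 8 h against 0 h, 4.73% of all probe sets were lower and 4.98% higher. The median of that list was -0.29.

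At 5 to 8 h against 0 h the carnitine list had 1 call, higher, and the prostaglandin list had 1 in each direction. Of all probe sets 4.73% were lower and 4.98% higher. The carnitine list held 13 tested genes of carnitine synthesis, carnitine transfer and fatty acid oxidation. Of these, Cpt2, which moves fatty acids off carnitine inside mitochondria, was higher at 5 to 8 h (0.70, adjusted p = 0.0267), and the median was 0.11. Of 9 prostaglandin genes, the prostaglandin D synthase gene Ptgds was higher (0.78) and Pla2g4a, which frees arachidonic acid, was lower (-0.52), with a median of -0.07. Among 14 proximal tubule markers Cubn was higher (0.66) and Gatm lower (-0.60), with a median of -0.02.

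**Figure D3:**
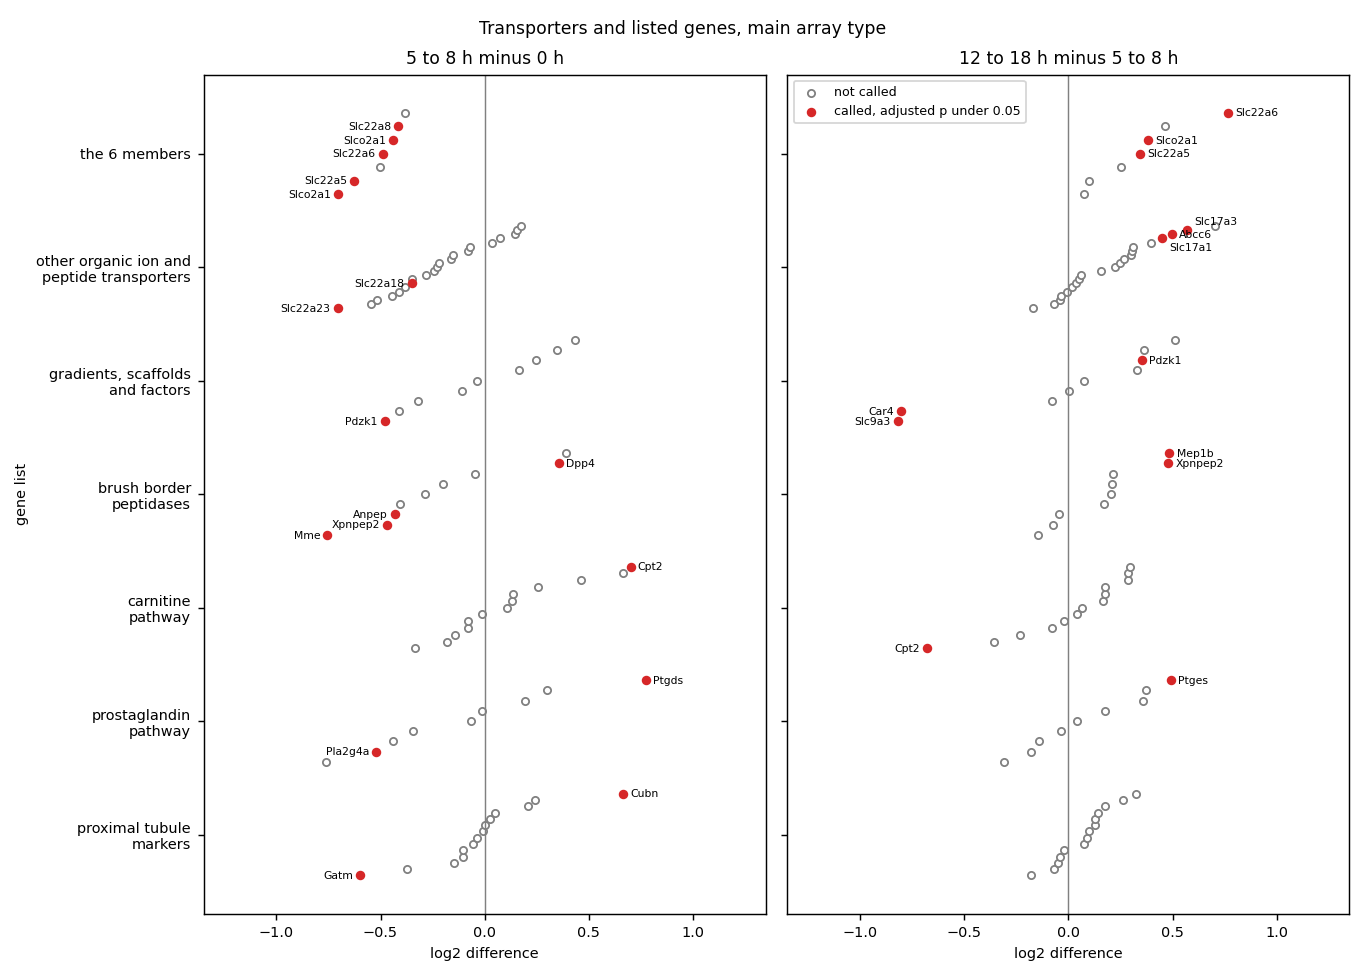
Log2 differences on the main array type for the 7 member probe sets and for the tested genes of 6 lists, 5 to 8 h minus 0 h on the left and 12 to 18 h minus 5 to 8 h on the right, 1 point per probe set. Named red points passed an adjusted p of 0.05. On the left all member points lie below 0, at a median of -0.49. Peptidases have a median of -0.29 there, other transporters -0.23 and prostaglandin genes -0.07. The gradient, scaffold and factor list has -0.03, proximal tubule markers -0.02 and carnitine genes 0.11.

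Some markers of other cells moved in the same window, 5 to 8 h, where 4.73% of all tested probe sets were called lower and 4.98% higher. The summed signals below were not set against sums of other genes. The summed signal of 9 macrophage and neutrophil markers was 1711 to 3354 at 5 to 8 h, against 1317 to 1632 at 0 h, with 4 of 8 tested called higher. That of 5 podocyte markers was 534 to 901, against 937 to 1260, with 1 of 5 lower (Synpo, -0.93). For 8 endothelial markers, a cell type that also holds Slco2a1, the sum was 1169 to 1940, against 1537 to 1959, and 2 of 7 were lower (Kdr -0.74, Tie1 -0.76). The proximal tubule sum was 25783 to 39078, against 31181 to 36403, and was at its lowest in 7 h replicate 3. The 8 thick limb and distal tubule markers summed to 3407 to 9184, against 6330 to 8149, with 0 of 7 called, and were also at their lowest in that library. Sums of 8 collecting duct markers were 1312 to 2808, against 2290 to 2474. The 4 adipose markers, none of them bright enough to be tested, summed to 78.9 to 350.5, against 83.9 to 132. Their sum was highest of that window in 7 h replicate 3. That library also held the lowest values of Slc22a6, Slc22a8, Slc22a5 and Slc15a2. Fibroblast and muscle markers summed to 1300 to 2299, against 909 to 1938, and liver markers to 305 to 464, against 328 to 429. The part of these shifts in the transporter results was not tested.

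On the second array type, which may hold the same samples, Slc22a6 was already low at 2 h. It had 852, 684 and 965 at 2 h, against 1280, 1362, 1559 and 1491 at 0 h, with no overlap (13.4% of tested probe sets were lower without overlap). The difference was -0.78 ± 0.18 (limma, adjusted p = 0.0211), 41.7% lower, the only call among 6 probe sets, while 4.98% of all were called lower. The call was lost when 0 h replicate 3 or 4 was left out (up to 0.0704), and without both 2 h libraries that stand apart, which leaves 1 library at 2 h (-0.73, adjusted p = 0.1179). On the main type the 2 h signals of Slc22a6 were 1017, 941 and 1081, a difference of -0.49 ± 0.19 that was not called (adjusted p = 0.1553).

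At 6 h on the second type 0 of 6 probe sets were called, while 2.35% of all were called in either direction and 559 of 5244 had an unadjusted p under 0.05. Slc22a6 had 955, 775 and 1019, against 1280 to 1559 at 0 h, a difference of -0.64 ± 0.18 (adjusted p = 0.1093). It was called under 1 single omission, that of 2 h replicate 2 (adjusted p = 0.0389), and without both 2 h libraries that stand apart (adjusted p = 0.0497). Slc22a5 had 309.5, 548 and 418, against 622 to 736 (-0.68 ± 0.23, adjusted p = 0.2101). Slco2a1 rc_AA800797_at had 84.2, 71.3 and 124.4, against 155.5 to 211.7 (-0.87 ± 0.27, adjusted p = 0.1484), and the group at 0 h held 1 high value, 211.7 in replicate 3. In these 3 all libraries at 6 h lay under all at 0 h, as for 8.01% of tested probe sets. The other Slco2a1 probe set, M64862_at, stood at -0.23 ± 0.27, Slc15a2 at -0.31 ± 0.22 and Slc22a2 at -0.07 ± 0.23, with groups that overlapped.

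On the main type the 6 h libraries alone gave -0.35 for Slc22a6, -0.57 for Slc22a5 and -0.70 for Slco2a1 1372889_at, of which the last 2 were called. Pdzk1 was called lower on the second type at 2 h (-0.98, adjusted p = 0.0136) and at 6 h (-0.94, adjusted p = 0.0308), and Slc22a25, another SLC22 gene, at 2 h (-1.06, adjusted p = 0.0092). Slc9a3 was higher at 6 h (1.05, adjusted p = 0.0375). The 7 macrophage and neutrophil markers summed to 1625 to 1977 at 2 h and 1194 to 1522 at 6 h, against 698 to 898 at 0 h. The 8 liver markers summed to 897 to 1162 at 2 h and 200 to 407 at 6 h, against 218 to 263 at 0 h. Of 5 tested liver markers 1 was called higher at 2 h and 0 at 6 h. For 5 tested macrophage and neutrophil markers these counts were 4 and 1. Over all 5244 tested probe sets they were 253 and 82. The part of both marker groups in the Slc22a6 result was not tested. Proximal tubule markers summed to 26135 to 32265 at 2 h and 32316 to 34100 at 6 h, against 28156 to 30951 at 0 h.

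**Figure D4:**
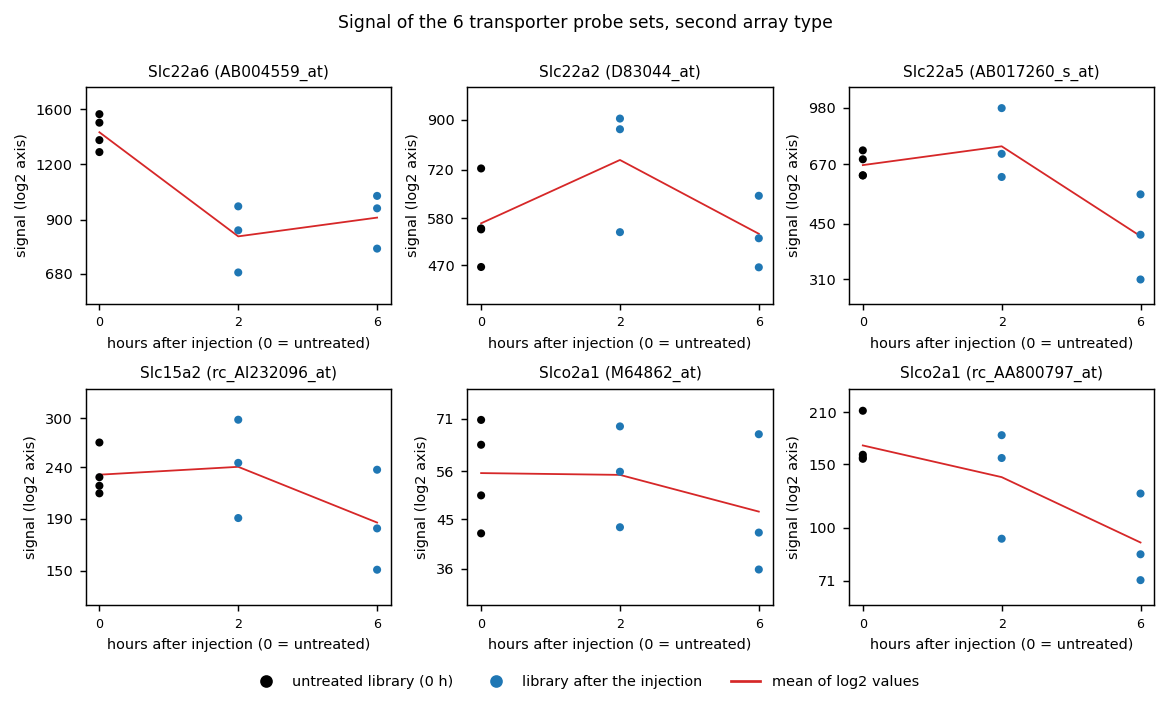
Signal of each transporter probe set on the second array type (log2 axis) at 0, 2 and 6 h, 1 point per library, with a line through the means of the log2 values. For Slc22a6 the 6 libraries after the injection lie between 684 and 1019, under the 4 untreated ones at 1280 to 1559.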

How the data were processed

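Probe set intensities were used as the authors deposited them, 1 column per array, from 53 arrays of the main type and 10 of the second. Their algorithm is not named in the sources used here. A mean trimmed by 2% at each end was 150.03 to 150.04 (main) and 150.19 to 150.23 (second) on every array, and array medians were 65.6 to 83.3 and 38.8 to 45.0. The 2 types were scaled separately and each was tested on its own. The 5 h number 1 sample has 2 main arrays, which were averaged, leaving 52 libraries. The number of arrays limits the precision, and files give no flags of detection.

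Control probe sets (57 and 59) were left out, and intensities were taken as log2(value + the 10th percentile of the table). The test took probe sets whose mean reached the 40th percentile. limma 3.58.1 in R 4.3.3 (lmFit, contrasts over window means, eBayes with trend, Benjamini-Hochberg adjustment at 0.05) gave differences ± SE and every adjusted p in the text. In a seeded simulation of the 5 to 8 h comparison on 9520 probe sets, 92.7% of 192 probe sets changed by a log2 value of 1 were recovered and 3.78% of calls were false. For the second type at 6 h, on 5244, 37.9% of 195 were recovered and 6.33% of calls were false. Members differed by less in these comparisons, -0.70 to -0.38 and -0.87 to -0.07, and recovery at such sizes was not simulated.

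Symbols are those of the array annotation, brought up to date through gene identifiers for 12748 main and 6985 second probe sets. Those with several symbols (312 and 308) or none (2771 and 1426) were not named. A library was said to stand apart where its median correlation with the others was under 0.932 (main) or 0.944 (second). Named genes were all member probe sets, the called members of fixed lists and the 3 most correlated tested transcripts for each member. Members and lists were chosen with earlier results of these data known. On the second type all 9 same-number pairs of deviations correlated over 0.1 (lowest 0.145), and the labels do not say what a shared number means. Differences and p-values given for that type are from the fit without a replicate block, unless stated. A replicate block changed no member call there. Alternatives were 2 other pseudocounts, 2 other filters, quantile normalization, array weights, robust moderation, a replicate block, fits on the compared times, omission of arrays b and c and of each library, and, added after the data were seen, omission of the libraries that stand apart, single times, and 12 to 18 h against 5 to 8 h. Python 3.11.15, pandas 2.3.3, scipy 1.17.1 and matplotlib 3.10.9 were used for the rest.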

Additional observations from a re-analysis of the deposited data

Results flagged for a closer look

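For Slco2a1 rc_AA800797_at on the second type, 1 of the 4 untreated libraries lay far from the others, at 211.7 against 155.5, 156.8 and 159.6, a gap of 0.916 of the group's range (Dixon's test, which chance passes in about 1 in 20 groups). Differences between times after the injection were called by limma at 5 to 8 h against 30 h for Slc22a6 (-0.5697), Slco2a1 1372889_at (-0.6457) and Slc15a2 (-0.6973), each lost without 1 or another library at 30 h. They were called at 12 to 18 h against 5 to 8 h for Slc22a5 (0.3432), Slc22a6 (0.7677) and Slco2a1 1372889_at (0.3842), of which that of Slc22a6 was kept under all 52 single omissions.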

How the results depend on the processing

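Counts of members called moved as follows. At 2 to 4 h against 0 h none was called, but 1 was with quantile normalization, 4 with array weights, 2 with only the compared times and 1 without the libraries that stand apart, with 0 to 1 over single omissions. At 5 to 8 h against 0 h the 5 calls became 3 without the filter and 3 with only the compared times (Slc22a8 and Slco2a1 1387492_at lost in both), 7 with array weights (Slc22a2 and Slc15a2 added), and 2 to 7 over single omissions. At 5 to 8 h against 30 h the 3 calls became 0 with only the compared times and 1 to 4 over single omissions. At 12 to 18 h against 5 to 8 h the 3 calls became 1 with array weights, without arrays b and c, with only the compared times and without the libraries that stand apart, and 1 to 4 over single omissions. At 12 to 18 h against 30 to 72 h array weights gave 1 in place of 0. On the second type the 1 call at 2 h became 0 without the libraries that stand apart and 0 to 1 over single omissions. At 6 h the count of 0 became 1 with array weights, without arrays b and c, with only the compared times and without the libraries that stand apart, and 0 to 1 over single omissions. The 7 calls of the F test became 4 without arrays b and c. The cause of these moves was not tested, other than that some alternatives hold fewer samples.

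On the main type sample numbers were not shown to pair samples, since 153 of 408 same-number pairs correlated over 0.1 (median r 0.057). With the replicate block the 5 calls at 5 to 8 h became 4, Slc22a6 having adjusted p = 0.0529 from limma, and Slc22a5 lost its calls at 4, 5, 6 and 8 h alone (adjusted p = 0.0543, 0.0558, 0.1042 and 0.1053) and Slc15a2 its call at 7 h (0.0667).

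Among members, signs turned under these alternatives only for differences that were not called. On the main type these were Slco2a1 1372889_at at 0.25 to 1 h (-0.0423 with the replicate block), Slc15a2 at 2 to 4 h (-0.0028 with quantile normalization, -0.0086 with array weights, -0.0812 without arrays b and c), and Slc22a8 at 30 to 72 h (-0.0347 with quantile normalization, -0.0333 without arrays b and c). Others were Slco2a1 1372889_at at 30 to 72 h (0.0509 with array weights), Slco2a1 1387492_at at 30 to 72 h (-0.0373 without arrays b and c) and Slc22a8 at 12 to 18 h against 5 to 8 h (-0.0158 with array weights). On the second type they were Slc22a5 at 2 h (-0.1141 without the libraries that stand apart), Slco2a1 M64862_at at 2 h (0.0735 with quantile normalization, 0.0984 with the replicate block, 0.2879 without arrays b and c, 0.0084 without the libraries that stand apart) and Slc22a2 at 6 h (0.05 with the replicate block).

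Over single omissions the difference ran from -0.0844 to 0.0148 for Slc22a8 and -0.0423 to 0.0911 for Slco2a1 1372889_at at 0.25 to 1 h, from -0.0906 to 0.1489 for Slc15a2 at 2 to 4 h, and from -0.1269 to 0.0409 for Slco2a1 1372889_at and -0.0279 to 0.1363 for Slco2a1 1387492_at at 30 to 72 h. At 2 h on the second type it ran from -0.0028 to 0.3288 for Slc22a5, -0.1605 to 0.1482 for Slco2a1 M64862_at and -0.1017 to 0.2162 for Slc15a2, and at 6 h from -0.1887 to 0.05 for Slc22a2.

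Counts over all probe sets moved too. The 450 lower at 5 to 8 h were 712 with array weights, 276 with only the compared times and 273 without 0 h replicate 3. The 403 lower than at 30 h were 151 with only the compared times and 149 without 30 h replicate 2, and the 558 higher at 12 to 18 h than at 5 to 8 h were 345 without arrays b and c. The F test's 1535 were 4607 with array weights and 911 without arrays b and c. On the second type the 261 lower at 2 h were 943 without arrays b and c and 90 without 0 h replicate 3, and the 41 lower at 6 h were 106 with array weights and 11 without 6 h replicate 2.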
